A study of Mus musculus with 3 samples.

Results

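The genes described here are 10 members of the Notch pathway, taken by symbol from a table of 44788 genes: the receptors Notch1, Notch2, Notch3 and Notch4, the ligands Jag1, Jag2 and Dll1, and the target genes Hes1, Hey1 and Heyl. All 10 symbols had a row in the table. Bulk RNA sequencing was done on primary chondrocytes of C57BL/6 mice, taken from cartilage of the knee joint. Cells with the genotype Col2a1-CreERT2;Kdm6bf/f gave 2 libraries (cKO), and Kdm6bf/f cells gave 1 library (control); the latter carry the floxed alleles without the recombinase. The culture medium was F12 with 10% fetal bovine serum for either genotype, and all cells received 1 µM 4-hydroxytamoxifen for 48 h, which activates CreERT2; the drug was thus common to all 3 libraries. The Col2a1 promoter limits the recombinase to cells in which that promoter is or was active. The labels do not say whether the cKO libraries came from separate animals or cultures, and the Xist counts given below bear on this.

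Notch receptors are single-pass membrane proteins that are activated by Jagged or Delta-like ligands on a neighbouring cell. Ligand binding lets an ADAM protease and then γ-secretase cut the receptor, and its freed intracellular part enters the nucleus, binds the DNA-binding protein Rbpj and switches on Hes and Hey genes, which encode transcriptional repressors. In cartilage the pathway is known to restrain early chondrocyte differentiation and Sox9-driven matrix genes, to act in growth plate maturation, and to take part in the upkeep of the adult joint.

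Library totals lay between 12489738 and 12636471 counts. Kdm6b, the gene targeted by the design, had 1049 and 948 counts in cKO, against 1289 in control cells. On the log2 scale it differed by -0.39 ± 0.14 (SE; adjusted p = 0.138 in edgeR). Kdm6b therefore did not pass the test, and counts over the whole gene check the genotype only weakly. The cKO libraries also stood apart from each other in Xist, the RNA of the inactive X chromosome, whose counts were 2 (cKO replicate 1), 10081 (cKO replicate 2) and 1 (control). By this RNA, cKO replicate 2 held cells with an inactive X chromosome, as female cells have. Replicate 1 of cKO and the control showed almost none. The 2 cKO libraries were thus not made from the same pool of cells, and the fit did not adjust for this difference. All 10 Notch genes are autosomal, which does not exclude a difference between libraries of unlike sex. Of 11 chondrocyte markers, all were detected and 10 fell at an adjusted p below 0.05 in edgeR, against 1.9% of all genes tested. DESeq2 called 8 of the 11 and limma-voom 11. Their summed level was 18060 and 16675 CPM (counts scaled to library size) in cKO, against 30273 CPM in control cells. Most of that sum was Col2a1, at 12527 and 11984.5 CPM in cKO, against 20116 CPM in control cells. Col2a1 was lower in both cKO libraries but did not pass in edgeR (log2 fold change -0.71, adjusted p = 0.283). Fibroblast markers summed to 20110 and 18247 CPM in cKO, against 20766 CPM in control cells, and 1 of 9 of them, Thy1, rose in edgeR (623 and 259 counts, against 139), whereas DESeq2 called 0. Osteoblast markers summed to 19.7 and 22.1 CPM in cKO, against 34.7 CPM in control cells, and 1 of them, Ibsp, fell (adjusted p = 0.0361 in edgeR), while DESeq2 called 0. Skeletal muscle markers summed to at most 5.39 CPM in any library. In bulk samples, fewer cells of a type and less RNA per cell cannot be told apart.

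The promoters of the receptor genes are shown first because the receptors include both the most abundant of the 10 genes, Notch2, and the gene that passed the test, Notch4. The windows run from 250 bases before to 30 bases after the start site in RefSeq (GRCm38.p6), 5′ to 3′ on the gene's strand, and these start sites need not equal the GENCODE gene starts given further on. Capitals mark matches on either strand to the GC box GGGCGG, the AP-1 site TGANTCA or the gamma-activated site TTCNNNGAA. The windows are chr2:26503793-26504072 (minus strand) for Notch1, chr3:98013288-98013567 (plus strand) for Notch2, chr17:32166861-32167140 (minus strand) for Notch3 and chr17:34564045-34564324 (plus strand) for Notch4.
Notch1: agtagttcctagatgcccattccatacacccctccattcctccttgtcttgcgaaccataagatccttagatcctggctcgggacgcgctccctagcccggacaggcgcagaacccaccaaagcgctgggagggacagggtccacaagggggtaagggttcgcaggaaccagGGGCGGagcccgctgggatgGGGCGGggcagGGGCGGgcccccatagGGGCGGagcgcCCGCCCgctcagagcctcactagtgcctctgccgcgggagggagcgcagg
Notch2: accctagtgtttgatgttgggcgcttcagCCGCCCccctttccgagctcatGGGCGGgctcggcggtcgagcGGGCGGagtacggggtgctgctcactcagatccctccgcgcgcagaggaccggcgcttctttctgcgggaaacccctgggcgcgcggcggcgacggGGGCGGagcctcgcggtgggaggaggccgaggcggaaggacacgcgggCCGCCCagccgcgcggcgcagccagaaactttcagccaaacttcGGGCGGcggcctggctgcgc
Notch3: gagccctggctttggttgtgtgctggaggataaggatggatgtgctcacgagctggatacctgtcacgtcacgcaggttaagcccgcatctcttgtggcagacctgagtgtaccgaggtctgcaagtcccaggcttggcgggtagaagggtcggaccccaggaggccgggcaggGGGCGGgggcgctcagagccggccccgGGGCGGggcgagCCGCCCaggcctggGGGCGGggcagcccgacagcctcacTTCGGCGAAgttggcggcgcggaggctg
Notch4: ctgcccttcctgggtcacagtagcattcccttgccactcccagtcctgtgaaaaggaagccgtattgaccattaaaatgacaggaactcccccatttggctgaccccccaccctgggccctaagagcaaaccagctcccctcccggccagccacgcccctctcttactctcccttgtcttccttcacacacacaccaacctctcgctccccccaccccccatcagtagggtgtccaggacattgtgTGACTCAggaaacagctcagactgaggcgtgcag
The GC box occurred 5 times in the Notch1 window, 6 times in the Notch2 window and 4 times in the Notch3 window. The Notch4 window held no GC box. Its single match was the AP-1 site TGACTCA, which spans the start site from position -4 to 3, where position 1 is the first transcribed base. Of 32851 RefSeq promoter windows of this length, 34.7% held a GC box, 7.46% held TGANTCA and 7.83% held TTCNNNGAA. The Rbpj core TGGGAA (23.8% of windows) and the interferon-stimulated response element (3.28%) were searched on both strands too, and neither was found in these 4 windows. No overlap between different motifs occurred in them. A match in a short window is a description and does not show binding.

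Levels of different genes were compared as CPM per kilobase of merged exons, because longer transcripts collect more reads. Notch2 was the most abundant of the 10 genes, at 23.5 and 21.2 CPM per kb in cKO and 20.7 CPM per kb in the control. Notch1 followed at a median of 3.98 CPM per kb over the 3 libraries, and Hes1 lay beside it at 3.71, with overlapping ranges. Jag1 and Notch3 came next, at medians of 1.80 and 1.58 CPM per kb, again with overlapping ranges. Notch4 (median 0.417) and Hey1 (0.344) followed, and then Jag2 (0.161) and Dll1 (0.0573). The range of Notch4 overlapped those of Hey1, Jag2 and Dll1, and Dll1 overlapped Hey1 and Jag2, so these 4 genes were not fully ordered. Heyl was lowest, with 0 in both cKO libraries and 0.0315 CPM per kb in the control. The measured receptor and ligand levels were thus highest for Notch2 and Jag1 in every library. With the longest coding transcript as the length, Notch1 had a median of 5.97 and Hes1 of 5.14 CPM per kb, and the order of the 10 medians was the same.

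**Figure D1:**
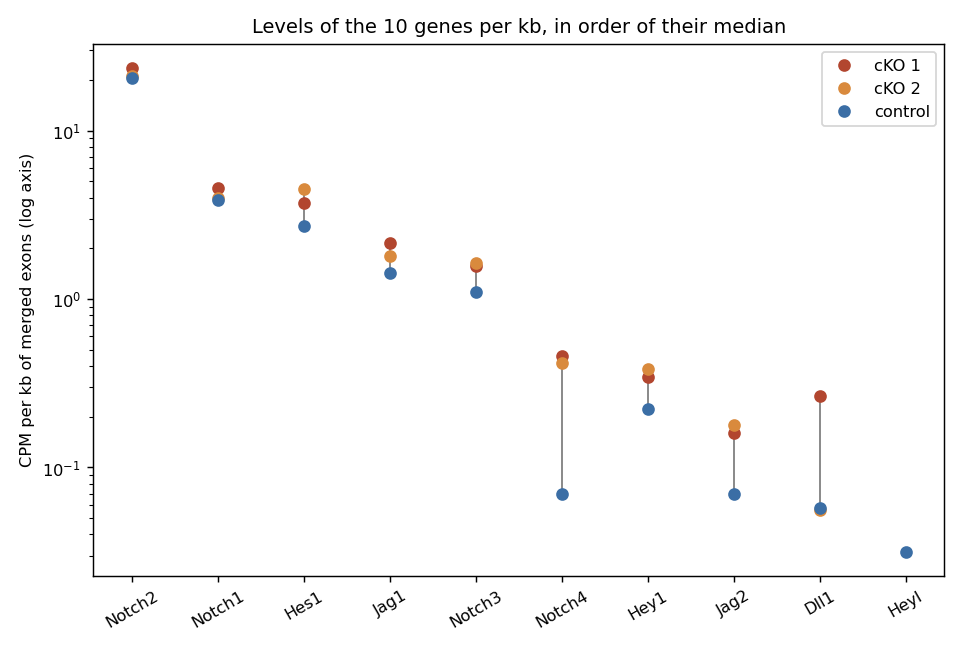
Level of each of the 10 genes in CPM per kilobase of merged exons (log axis), in order of the median over the 3 libraries. Points are single libraries and grey lines join the lowest and highest nonzero value; the cKO values of Heyl are 0 and cannot be drawn on this axis. Notch2 lies between 20.7 and 23.5 CPM per kb, above every other gene.

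Of the 10 genes, 9 had enough counts to be tested, and 1 of them, Notch4, rose in cKO chondrocytes at an adjusted p below 0.05 in edgeR. Over all 15529 genes tested, 3.01% were called higher by this rule, so 1 of 9 is a count of a single gene and not a statement on the pathway. None of the 9 was called lower in edgeR, DESeq2 or limma-voom, where 1.9% of all genes were called lower in edgeR, and at an unadjusted p under 0.05 in edgeR 2 of the 9 were higher and 0 lower (8.35% and 7.31% of all genes). In 8 of the 9 both cKO libraries lay above the control, which held for 36.6% of all genes tested, and in 0 of them both lay below (37.4% of all genes). That count does not carry the same weight for each gene. Notch4, Jag2, Hey1 and Dll1 passed the filter on low counts only through cKO libraries, since their control values lay under its level of 0.795 CPM. The median log2 fold change of the 9 was 0.59, against 0.00 over all genes tested, and the same filter bears on that median.

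**Figure D2:**
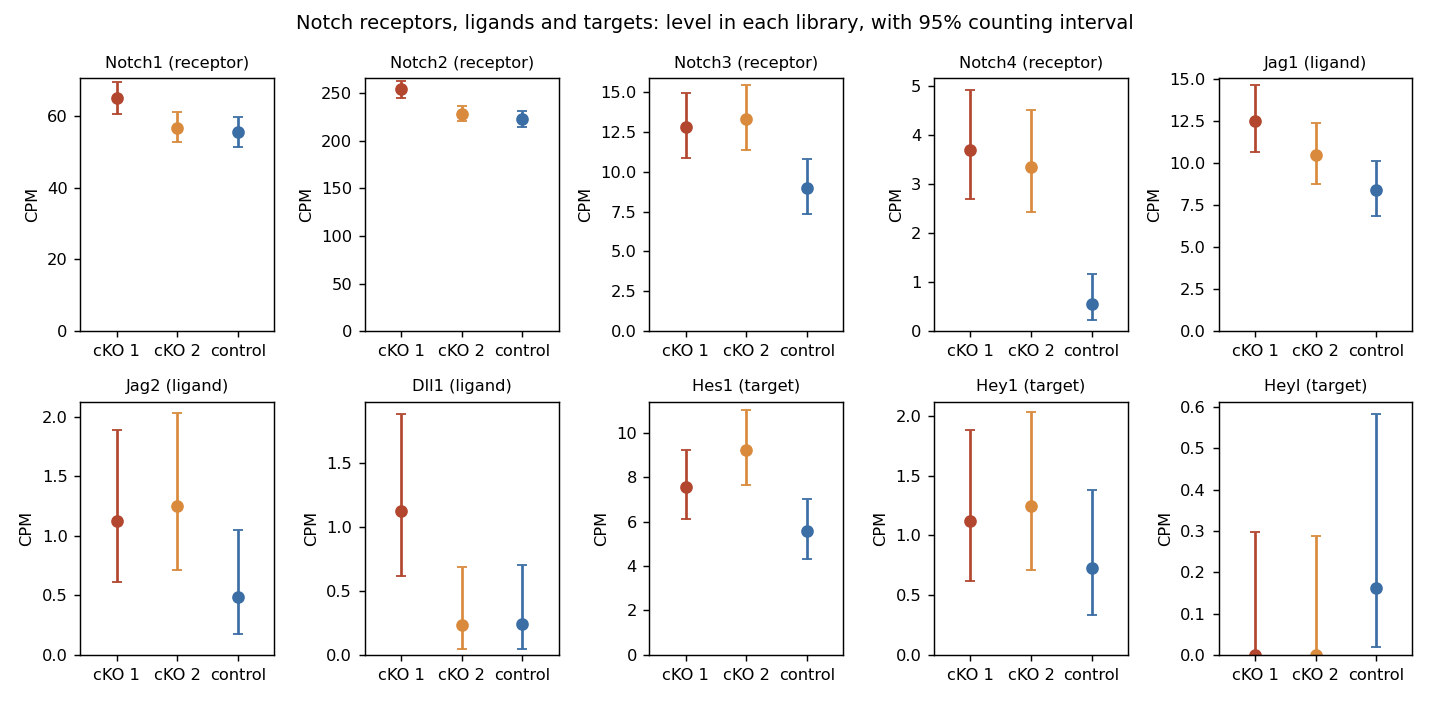
Level of each gene in each library in CPM (linear axes from 0, a separate scale per gene). Points are the 2 cKO libraries and the 1 control library, and bars are exact 95% Poisson intervals, which cover counting error only. The Notch4 intervals of both cKO libraries lie above that of the control, whereas those of Hey1 overlap.

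Among the receptors, Notch2 (chromosome 3, 98013527 to 98150361, plus strand, GRCm38) and Notch1 (chromosome 2, 26457903 to 26516663, minus strand) are the broadly expressed members of the family. Notch2 had 3161 and 2923 counts in cKO, against 2763 in control cells, or 254, 228 and 223 CPM. Notch1 had 808, 725 and 688 counts, or 64.9, 56.6 and 55.5 CPM. In both genes cKO replicate 1 was the highest library, and cKO replicate 2 lay close to the control. The log2 fold change was 0.11 ± 0.14 (SE) for Notch2 (adjusted p = 0.775 in edgeR) and 0.13 ± 0.15 for Notch1 (adjusted p = 0.761). Neither receptor passed the test. In the annotation, exons of Notch1 share 1068 bp with the antisense transcript 0610009E02Rik, those of Notch2 share 541 bp with Gm42820, and those of Notch3 share 488 bp with the antisense transcript Gm17276, so reads there could have been counted in more than 1 way.

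Notch3 (chromosome 17, 32120820 to 32166852, minus strand) encodes the receptor best known from the mural cells of small vessels. It had 159 and 170 counts in cKO, against 111 in control cells, or 12.8, 13.3 and 8.95 CPM. Both cKO libraries lay above the control and close to each other. Its log2 fold change was 0.54 ± 0.24 (SE), a 1.46-fold difference, with an unadjusted p of 0.0381 and an adjusted p of 0.277 in edgeR, so it did not pass. Markers of mural cells summed to 1612 and 1798 CPM in cKO, against 1537 CPM in control cells. Of these 13 markers 13 were detected and 11 tested; in edgeR, DESeq2 and limma-voom 0 passed, with 1 at an unadjusted edgeR p under 0.05. Most of the sum came from Acta2, Cspg4 and Pdgfrb. The vessel-restricted marker Kcnj8 had 0, 3 and 0 counts and Rgs5 had 14, 24 and 13 counts. Higher in both cKO libraries, as Notch3 was, were Actg2 (90, 166 and 59 counts) and Mcam (42, 63 and 30). So were Des (22, 11 and 8), Abcc9 (17, 7 and 6), Myocd (8, 11 and 4) and, by less, Cspg4 and Pdgfrb. Rgs5 was above the control in both as well, at 1.12 and 1.88 CPM in cKO, against 1.05 CPM in control cells. Over all genes tested, 36.6% had both cKO libraries above the control. Myh11 was lower in both (6, 3 and 7 counts), while Acta2, Tagln and Cnn1 lay on either side of the control. The part of mural cells in the Notch3 value was not tested.

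Notch4 (chromosome 17, 34564268 to 34588503, plus strand) encodes a receptor best known from the endothelium of blood vessels. It had 46 and 43 counts in cKO, against 7 in control cells, or 3.69, 3.36 and 0.564 CPM. The cKO libraries were alike and both lay far above the control. Notch4 rose 6.16-fold, a log2 fold change of 2.62 ± 0.57 (SE), with an edgeR adjusted p of 0.00651. The counts themselves gave a ratio of 6.25, with an exact 95% interval of 2.91 to 16.0 that covers counting error only. The single ratios to the control were 6.55 (2.94 to 17.2) for cKO replicate 1 and 5.95 (2.66 to 15.7) for cKO replicate 2.

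The Notch4 call rests on 7 control counts from 1 library and on the variance shared across genes. It held in limma-voom (adjusted p = 0.0244) but not in DESeq2 (adjusted p = 0.188), and in edgeR at 3 prior degrees of freedom its adjusted p was 0.342.

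Endothelial and leukocyte markers were read beside Notch4. Of 13 endothelial markers, 8 had a count in any library and 7 never exceeded 3 counts. The defining markers Cdh5, Tie1, Emcn, Cldn5 and Robo4 were at 0 in all 3 libraries, and Pecam1 had 1, 2 and 0 counts. The summed level was 33.3 and 31.9 CPM in cKO, against 40.6 CPM in control cells, most of it from Erg, a transcription factor gene that joint chondrocytes also use, at 27.5, 25.9 and 37.7 CPM. Without Erg, the other 12 markers summed to 5.78 and 5.94 CPM in cKO, against 2.90 CPM in control cells, so they were higher in both cKO libraries, as Notch4 was. Most of this came from Vwf, the clotting factor gene of endothelium, with 24, 27 and 7 counts (adjusted p = 0.134 in edgeR), and Egfl7, a secreted vessel protein, with 22, 35 and 19. Tek, an angiopoietin receptor, had 11, 3 and 3 counts. On the log2 scale the fitted differences were 1.82 for Vwf, 1.17 for Tek, 0.56 for Egfl7 and -0.50 for Erg. Of 13 leukocyte markers, 9 were detected, and 9 of the 13 never exceeded 3 counts, among them Ptprc with 1, 1 and 0 counts. Adgre1, Itgam and Tyrobp were at 0 in each library, and the summed level was 12.7 and 13.3 CPM in cKO, against 7.98 CPM in control cells. Csf1r, the receptor of macrophage growth factors, had 33, 28 and 8 counts (adjusted p = 0.0835 in edgeR). Of the 4 endothelial and 4 leukocyte markers with enough counts for the test, 0 passed in edgeR, DESeq2 or limma-voom. In edgeR, 2 of each list had an unadjusted p under 0.05. The endothelial pair went opposite ways, with Vwf higher and Erg lower, while the leukocyte pair, Cd68 and Csf1r, was higher. Over all genes tested, 8.35% were higher and 7.31% lower at that level. The part of other cells in the Notch4 value was not tested beyond these levels.

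The Notch4 reads do not share annotated exons with another gene in GENCODE M21. A pseudogene on the other strand, Gm20462, lies within the Notch4 gene with an exon overlap of 0 bp. Downstream, Gpsm3, a regulator of G-protein signalling that starts 1303 bp beyond the end of Notch4, had 16 and 10 counts in cKO, against 12 in control cells. Its neighbour Pbx2, a homeobox gene, differed by -0.18 ± 0.15 on the log2 scale (SE), at an adjusted p of 0.654 in edgeR. Ager, a receptor gene 9359 bp away, had 9 and 13 counts in cKO, against 3 in control cells, and did not pass either (adjusted p = 0.387). Of the 9 protein-coding genes within 50 kb, 6 were tested and 0 passed in edgeR.

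The same counts can be read as shares of all receptor counts, which is a description and no further support for the Notch4 difference. Notch2 supplied 75.7% of the 4174 receptor counts in cKO replicate 1, 75.7% of 3861 in cKO replicate 2 and 77.4% of 3569 in the control. Notch4 supplied 1.10% (exact 95% binomial interval 0.808 to 1.47) and 1.11% (0.807 to 1.50) in the cKO libraries and 0.196% (0.0789 to 0.404) in the control. Notch1 took 19.4%, 18.8% and 19.3%, and Notch3 took 3.81%, 4.40% and 3.11%. Notch4 supplied the smallest share of the 4 receptors in every library.

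Jag1 (chromosome 2, 137081456 to 137116644, minus strand) encodes the main Jagged ligand and was the most abundant of the 3 ligands. It had 156 and 134 counts in cKO, against 104 in control cells, or 12.5, 10.5 and 8.38 CPM. Both cKO libraries were above the control, with a log2 fold change of 0.45 ± 0.26 (SE), with an edgeR adjusted p of 0.431. Jag2 (chromosome 12, 112907819 to 112929776, minus strand), a second Jagged ligand, had 14, 16 and 6 counts. Its ratio was 2.46, with an exact 95% counting interval of 1.01 to 7.22, and its log2 fold change of 1.28 ± 0.75 did not pass (adjusted p = 0.452 in edgeR). Both cKO libraries lay above the control, at counts too low for a firm statement.

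Dll1 (chromosome 17, 15367354 to 15376872, minus strand) encodes a Delta-like ligand that patterns the embryonic segments. Its counts were 14 (cKO replicate 1), 3 (cKO replicate 2) and 3 (control), so the groups overlapped. The ratio of cKO to control was 2.78, with an exact 95% counting interval of 0.805 to 14.8, and the adjusted p in edgeR was 0.570. The fitted log2 fold change of 1.44 depends on cKO replicate 1; leaving it out gave -0.04. Exons of Dll1 share 867 bp with the antisense transcript A930024N18Rik, and the use of strand in counting is not given in the sources used here, so the Dll1 counts are uncertain.

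**Figure D3:**
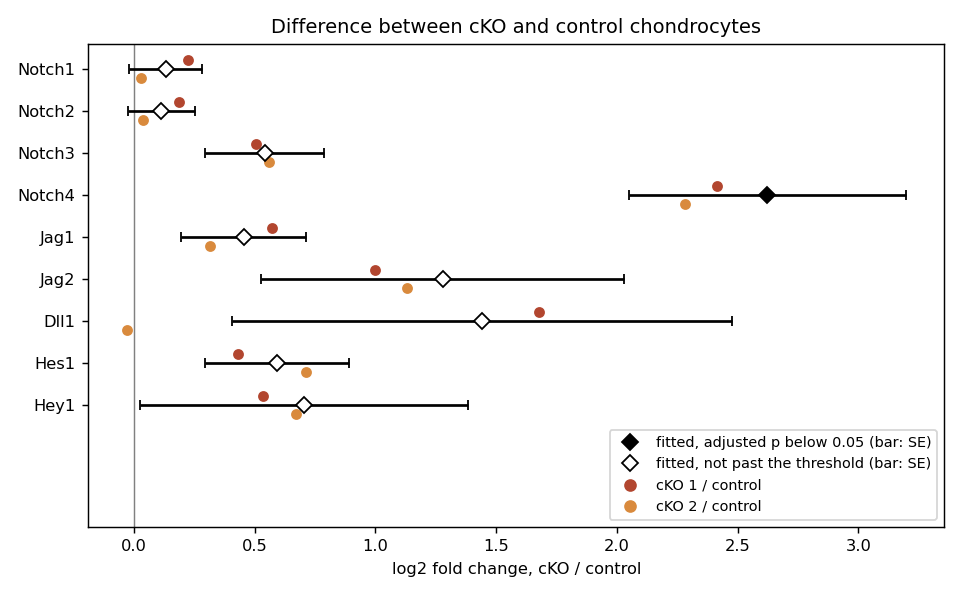
Log2 fold change of cKO against control for the 9 tested genes. Diamonds are edgeR fits with SE bars, filled where the adjusted p is below 0.05, and circles are the log2 ratios of single cKO libraries to the control with a prior count of 2, which draws ratios of low counts towards 0. Notch4 has the single filled diamond, at 2.62, and Dll1 has its 2 circles on either side of 0.

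The target genes are the usual readout of receptor activity. Hes1 (chromosome 16, 30064384 to 30067796, plus strand) encodes a repressor that is switched on within a short time of Notch cleavage and that other pathways also induce. It had 94 and 118 counts in cKO, against 69 in control cells, or 7.55, 9.22 and 5.56 CPM. Both cKO libraries lay above the control, by 0.43 and 0.71 on the log2 scale. The fitted log2 fold change was 0.59 ± 0.30 (SE), a 1.51-fold difference, with an unadjusted p of 0.0604 and an adjusted p of 0.352 in edgeR. Hes1 did not pass the test.

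Hey1 (chromosome 3, 8663359 to 8667256, minus strand) encodes a related repressor of heart, vessel and bone cells. It had 14 and 16 counts in cKO, against 9 in control cells, with a ratio of 1.64 and an exact 95% counting interval of 0.758 to 3.92. The adjusted p in edgeR was 0.703, and a difference of this size was not detectable at this depth. Heyl (chromosome 4, 123233556 to 123249875, plus strand), the third Hey gene, had 0 and 0 counts in cKO, against 2 in control cells, too few to be tested. All 3 libraries lay under 3 counts for Heyl, so no fold is given. Of the 3 targets, 0 passed in edgeR, limma-voom or DESeq2, and in edgeR 0 reached an unadjusted p under 0.05.

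Other genes of the pathway were read from a list of 56, arranged by the step at which each acts. Of these, 46 were tested, 2 rose, 0 fell and 44 did not pass, against 3.01% of all genes higher and 1.9% lower. The genes called were the same 2 in DESeq2 and limma-voom, and 0 were called lower in either. At an unadjusted p under 0.05 in edgeR, 10 were higher and 2 lower, or 21.7% and 4.35% of the list, against 8.35% and 7.31% of all genes tested. The median log2 fold change of the 46 was 0.09. Both cKO libraries lay above the control for 26 of them and below it for 17, and over all genes tested those shares were 36.6% and 37.4%.

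Dlk1 and Dtx3l were the genes that rose. Dlk1, an imprinted Delta-like membrane protein that lacks the receptor-binding domain of canonical ligands, had 567 and 531 counts in cKO, against 282 in control cells. It rose 1.91-fold, from 22.7 CPM to 43.5 ± 2.9 CPM (SD, n = 2), with a log2 fold change of 0.94 ± 0.17 (SE; edgeR adjusted p = 0.00120). Dtx3l, a Deltex-family ubiquitin ligase that pairs with Parp9 and is known as an interferon-induced gene, had 1097 and 1051 counts in cKO, against 85 in control cells. It rose 12.4-fold, from 6.85 CPM to 85.1 ± 4.2 CPM, with a log2 fold change of 3.63 ± 0.19 (SE; edgeR adjusted p = 3.75e-12). In both genes the cKO libraries were close together and well above the control. The other Deltex genes tested, Dtx2, Dtx3 and Dtx4, had log2 fold changes of 0.43, -0.28 and -0.34 and did not pass. At 3 prior degrees of freedom, Dtx3l passed (adjusted p = 0.0180 in edgeR) and Dlk1 did not (adjusted p = 0.279).

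**Figure D4:**
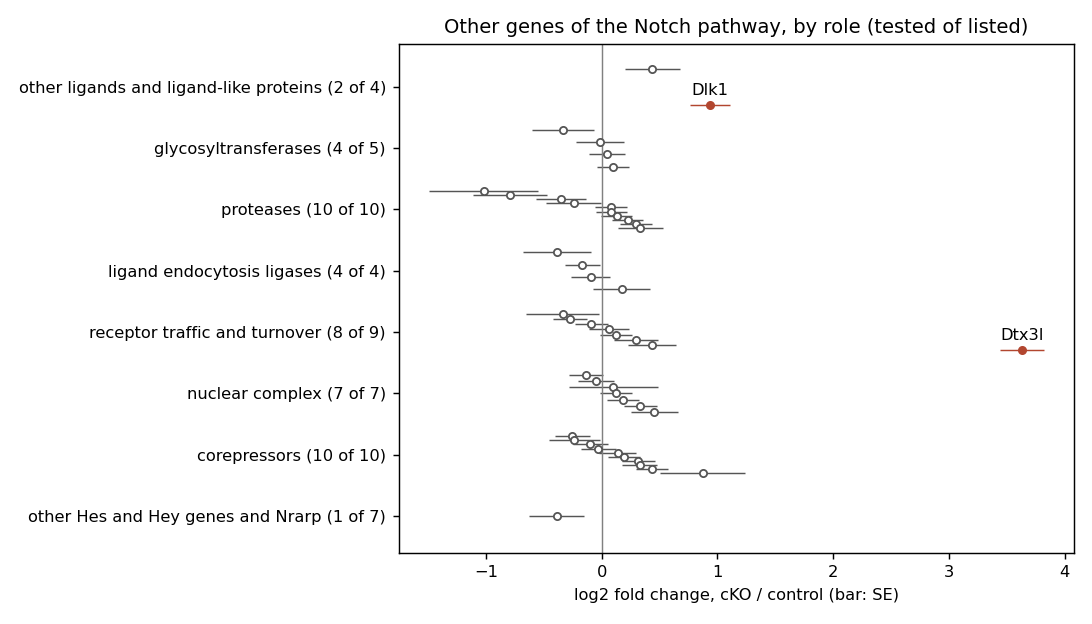
Log2 fold change of cKO against control (points, with SE bars) for the 46 tested genes of the pathway list, arranged by role, with the number tested and listed beside each role. Filled points have an adjusted p below 0.05: Dlk1 at 0.94 and Dtx3l at 3.63, while the others lie between -1.02 and 0.87.

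The other Delta-like genes Dll3 and Dll4 were near the limit of detection. Dll4, the ligand of sprouting vessels, had 0, 0 and 1 counts, and Dll3 had 0, 1 and 0. Dlk2, the close relative of Dlk1, had 158, 173 and 120 counts and a log2 fold change of 0.44 ± 0.24 (SE; edgeR adjusted p = 0.410).

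Genes for receptor processing were detected at each step. Of the 5 glycosyltransferases that modify the receptor's outer part, 4 were tested and 0 passed. Pofut1, which adds the O-linked fucose, lay at 0.10 ± 0.14 on the log2 scale (SE). Lfng, the fringe enzyme that tunes the choice between Delta and Jagged ligands, had 93, 91 and 114 counts. Of the 10 proteases, 0 passed. Ncstn, the nicastrin subunit of γ-secretase, had 3428, 3287 and 2827 counts (log2 fold change 0.22 ± 0.14). The small subunits Aph1c and Psenen differed by -1.02 and -0.79 on the log2 scale (adjusted p = 0.285 and 0.212 in edgeR). Both lay below the control in each cKO library and had few reads, at most 39 and 86 counts. Among the 4 ligases that drive ligand endocytosis, 0 passed, and Mib1 lay at -0.17 ± 0.15 on the log2 scale.

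In the nuclear complex, 0 of 7 genes passed. Rbpj itself had 1641 and 1574 counts in cKO, against 1394 in control cells (log2 fold change 0.18 ± 0.14, SE). The acetyltransferase gene Ep300 lay at 0.12 ± 0.14, and the coactivators Maml1 and Maml2 lay at -0.13 and -0.05. Of the 7 genes, 2 were higher and 0 lower at an unadjusted p under 0.05 in edgeR, against 8.35% and 7.31% of all genes tested. Those 2 are not among the genes named here. Of the 10 corepressors, 0 passed.

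The remaining Hes and Hey genes gave little signal. Of 7 listed with Nrarp, a feedback inhibitor of the pathway, 1 was tested: Hes6, which opposes Hes1, had 121, 126 and 159 counts and a log2 fold change of -0.39 ± 0.24 (SE; edgeR adjusted p = 0.482). Hes3, Hes5 and Nrarp had 0 counts in all 3 libraries, and Hey2 had 4, 5 and 7. A count of 0 in a library allows up to 3 counts, which is between 0.234 and 0.242 CPM here. Numbl, an adaptor that promotes receptor uptake, had 1154, 1132 and 1031 counts and did not pass.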

How the data were processed

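RNA was depleted of ribosomal RNA and sequenced on the Ion Proton, per the labels' protocols. The authors deposited a table of raw read counts by gene symbol and library. Builds GRCh37 and GRCm38 are listed in the submitters' processing notes, and no source used here names the aligner, counter, annotation or strand use. From the counts, edgeR 4.0.16 (R 4.3.3) was run with filterByExpr, TMM scaling and the quasi-likelihood F test over 15529 genes, with Benjamini-Hochberg adjustment at 0.05. The SE was taken as the log2 fold change over the root of F. With 1 residual degree of freedom, the control is assumed to vary like the cKO pair, and the estimated prior degrees of freedom were 19.9. The p-values reflect no more than the spread of these libraries. That spread is not technical alone, since the cKO libraries differed in Xist, and the spread among control cells was not measured. On data simulated for 15196 genes at a single assumed dispersion of 0.01, 89% of 2-fold and 100% of 4-fold changes were recovered, with 10 false calls. The changed genes were drawn only from genes above a minimum mean CPM. Notch4, Jag2, Dll1 and Hey1 lay under that minimum, so the recovery rates do not cover them. DESeq2 1.42.0, limma-voom 3.58.1, RLE scaling, no filter, a prior of 3 degrees of freedom and omission of each cKO library were alternatives. Positions and exon lengths are from GENCODE M21 (GRCm38), and promoters from RefSeq, which matched 7 of the 10 symbols. Exact intervals and the limit of 3 counts cover counting error only. The members, lists, motifs and the rule for named genes (all members, pathway genes past the threshold, the gene of highest mean CPM in each role, and Kdm6b) were chosen with earlier results of these data known. Neighbours of Notch4, single markers and further pathway genes were named after their values were seen. Results for some pathway genes are not reported here.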

Additional observations from a re-analysis of the deposited data

How the results depend on the processing

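The number of Notch genes called higher was 1, and it was 0 in DESeq2, 0 with no filter on low counts and 0 at 3 prior degrees of freedom, while RLE scaling and limma-voom each gave 1. The pathway list had 2 genes called higher, 0 with no filter and 1 at 3 prior degrees of freedom. The adjusted p of Notch4 ranged from 0.00651 to 0.529, at log2 fold changes between 2.55 and 2.69 over all settings, omission of either cKO library included. Without the filter, edgeR called 0 of 24051 genes in either direction (1082 higher and 747 lower at an unadjusted p under 0.05), with estimated prior degrees of freedom of 2.03. There 1 of the 10 genes, Heyl, had both cKO libraries below the control. Over all genes, 467 were called higher and 295 lower, against 225 and 82 in DESeq2 and 83 and 4 at 3 prior degrees of freedom. Without cKO replicate 1 the log2 fold change of Dll1 was -0.04. With cKO libraries left out in turn, 1 library stood against 1 and no test was made. No paired analysis was possible because the single control carries no replicate number to pair. Depth limits Jag2, Dll1, Hey1 and Heyl, which had at most 16 counts in any library.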
